A study of Daphnia magna with 22 samples.

Results

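The GB and IL clones of the water flea Daphnia magna were compared under daily exposure to beta-hydroxybutyrate (BHB). The 6 libraries of this comparison, 3 GB females and 3 IL females, were chosen by the clone and treatment letters of their titles from 22 libraries in all. The GB isolate originated in a London lake that holds water all year, and the IL isolate in a Jerusalem pond that dries in summer. The submitters describe GB as a long-lived and IL as a moderately long-lived genotype. Both groups were fed a full diet (400000 cells of the green alga Scenedesmus per mL) and were kept for 2 h a day in 2.5 mM BHB, in the same solution for both clones. The females were 75 ± 2 days old. They were sampled just after laying eggs, and the eggs were removed, so that each library holds the RNA of the remaining body of 1 animal. The other groups of the series hold the same clones as a full-diet control in plain medium (6 libraries), on a restricted diet of 100000 cells per mL (CR, 6 libraries) and on the full diet with 0.1 mM nicotinamide mononucleotide (NMN, 4 libraries). Each clone is a single genotype, so a difference between GB and IL is one between 2 genotypes and not between 2 populations. P-values measure the spread between these females, which shared their aquaria, food and exposure trays.

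Daphnia females reproduce by parthenogenesis and hand the same genome to all daughters, so the females of a clone differ by environment, age and chance, while females of different clones also differ by every inherited variant. BHB is a ketone body that animals make from fatty acids when carbohydrate is short. It is used as a fuel and is also known as a signalling metabolite. The submitters' purpose for the series was to set BHB and NMN beside caloric restriction, and the clone comparison asks how far the transcriptomes of genotypes differ when both receive BHB.

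What was measured is the number of sense reads on each gene model, a predicted transcribed locus, without normalization. The BHB libraries held 8503141 to 13627714 counted reads. The table names gene models by protein accession (KZS or KZR and a number) or by a prediction ID, and no ID was matched to a gene name (0 of 9831 distinct IDs in the RefSeq table of assembly GCF_020631705.1). Genes are therefore described by ID, level and rank, at most 2 IDs are given in each direction, and the labelled tissue, whole organism, was not set against marker genes. No sequence is shown for the same reason. In whole bodies, fewer cells of a type and less RNA per cell cannot be told apart. The GB libraries carry library numbers 3, 4 and 5 and the IL libraries 6, 7 and 13, so an effect of library order and the clone cannot be told apart within BHB. In control the numbers of the clones interleave (1, 9 and 10 in GB, 2, 11 and 12 in IL).

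About 1 in 5 measured gene models differed between the clones under BHB. Of 4261 gene models tested, 891 passed an adjusted p of 0.05 (edgeR's quasi-likelihood test, Benjamini-Hochberg adjustment), which is 20.9% of those tested. In GB 470 were higher (11% of those tested) and 421 were lower (9.88%). Many of the differences were large: 691 exceeded 2-fold (382 higher and 309 lower in GB) and 441 exceeded 4-fold (246 higher and 195 lower), which is 10.3% of those tested. Differences over 32-fold were found in 126, 64 higher and 62 lower, when a clone with no read was set to a floor of 3 reads. The median size was 1.96 on the log2 scale among the 891, against 0.32 among all gene models tested, and the median signed difference over all was 0.00 (-0.000373). In each of the 891 the 3 GB females all lay on the same side of the 3 IL females. Such complete separation was seen in 1643 gene models in all (38.6%). Leaving out 1 library at a time gave 687 to 942 gene models, and 576 of the 891 were called in every one of these fits.

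**Figure D1:**
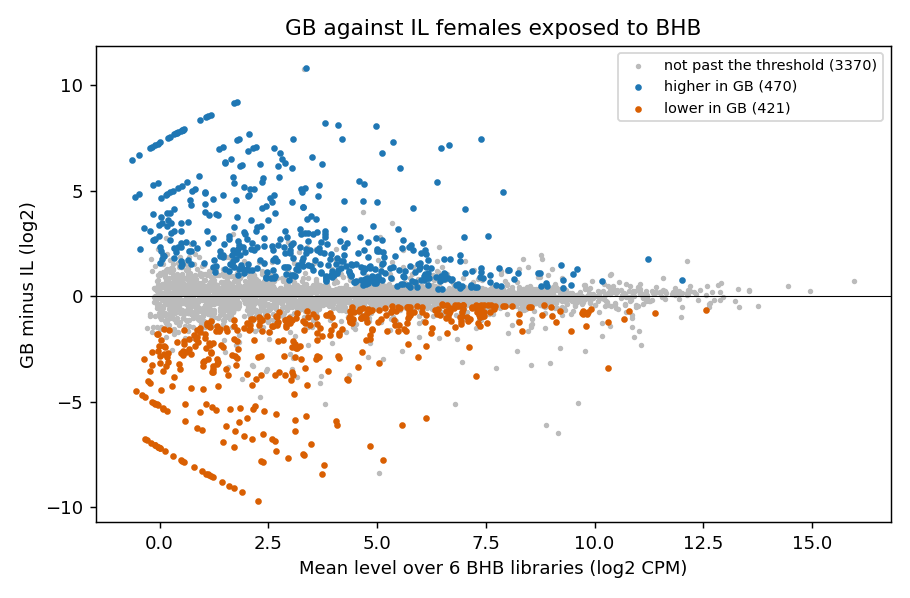
Log2 difference between clones (GB minus IL, vertical axis) against the mean level over the 6 BHB libraries (log2 CPM, horizontal axis), 1 point per gene model. The 470 gene models higher in GB and the 421 lower in GB lie mostly at low and middle levels, and the most abundant gene models lie near 0.

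Among called gene models whose mean log2 CPM reached 1, those with the largest fitted difference in each direction had reads in every female of one clone and none in the other. KZS16569 had 250, 141 and 258 reads in GB replicates 1, 2 and 3 and 0 in each IL female. Its level was 20.3 ± 5.02 CPM in GB (reads relative to the scaled library size; SD, n = 3), at least 245.5-fold higher than in IL with a floor of 3 reads over the IL group (edgeR adjusted p = 0.000208). KZS03785_1 had 72, 61 and 75 reads in GB and 0 in each IL female. That is 6.62 ± 0.87 CPM (SD, n = 3), at least 78.7-fold higher in GB (edgeR adjusted p = 0.000386). The table lists this ID on 2 rows. The first is given here, and the other had 9 reads in GB and 0 in IL. Reads of near-identical copies could be divided between such rows.

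In the other direction, KZS03135 had 136, 72 and 125 reads in IL replicates 1, 2 and 3 and 0 in each GB female. It measured 9.08 ± 1.52 CPM in IL (SD, n = 3), at least 97.8-fold higher than in GB (edgeR adjusted p = 0.000315). KZS05870 had 90, 81 and 75 reads in IL and again 0 in GB. It measured 6.98 ± 1.47 CPM in IL (SD, n = 3), at least 72.3-fold higher than in GB (edgeR adjusted p = 0.000538). A call and no overlap between the clones were conditions for naming these 4 gene models, so neither is a result. All 4 also passed under each of 16 alternatives, with adjusted p-values of at most 0.00487. The alternatives reuse the BHB libraries that chose the 4, so they show dependence on the processing only.

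The same 4 gene models were followed in the 16 libraries of the other groups, which did not enter their choice. KZS16569 had 152 to 285 reads in each of the 8 other GB libraries. In the IL libraries it had 9 reads in all in control, 2 in NMN and 13 in CR, of which 8 were in IL control replicate 1 and 9 in IL CR replicate 1. KZS03785_1 had 65 to 129 reads per library in GB and 0 to 2 in IL. KZS03135 had 81 to 158 reads in IL and 0 to 2 in GB. The clones stayed apart in all of these libraries. KZS05870 had 27 to 140 reads in the IL libraries of control and NMN and 5, 42 and 37 in IL replicates 1 to 3 on CR, with 0 to 2 reads in GB.

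**Figure D2:**
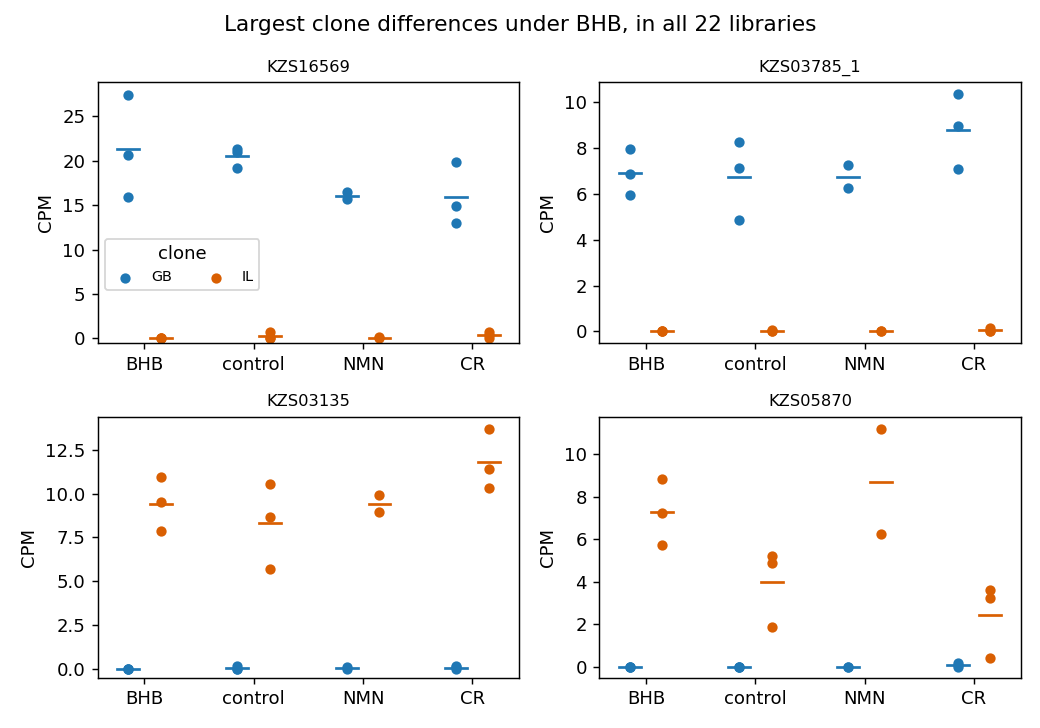
Level (CPM, scaled over all 22 libraries, vertical axis) of the 4 named gene models in each library, by treatment and clone, with the mean as a bar. GB and IL points are separate in every treatment, and the lowest IL point of KZS05870 is replicate 1 on CR, with 5 reads.

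Gene models detected in a single clone were counted with a fixed rule, at least 10 reads in each of 3 females and 0 in each female of the other clone. In BHB 25 met it with reads in GB and 27 with reads in IL. Of these, 23 and 25 were among the 891, against 20.9% of all gene models tested. The rule uses the same libraries as the test, so these calls are nearly built in and nothing is read from them. IDs on several rows of the table made up 17 of the 25 and 18 of the 27. Such IDs made up 6372 of all 14657 rows and 774 of the 4261 tested. In the 8 other libraries of the same clone, 25 of the 25 GB gene models and 26 of the 27 IL gene models had reads in every library. In the 8 other libraries of the opposite clone, 2 of the 25 and 6 of the 27 were at 0 throughout. The others had a few reads there: the opposite clone held 1.51 reads per 100 in GB for the first set and 1.23 per 100 in IL for the second. The lowest library of the clone with reads lay above the highest library of the other in 24 of 25 and 25 of 27, counted in reads. Of all 4261 gene models tested in BHB, 16.6% were separated in these 16 libraries in the direction of BHB, counted in CPM. The 0 reads of a clone in BHB limit the counted level at this depth and do not show that the gene is absent. Both clones were counted on the same gene models, and whether their reads map to these equally well was not tested.

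The share of gene models called fell from low to high level. With the tested gene models divided into 4 equal bins by mean level, 29.9% of the lowest bin (319 of 1066) and 30.2% of bin 2 (322 of 1065) differed between clones. It was 14.6% in bin 3 (156 of 1065) and 8.83% in the highest (94 of 1065). Differences over 4-fold made up 23.5% of the lowest bin and 0.563% (6 gene models) of the highest. The count filter keeps a gene model that reaches the count in 1 clone alone, which favours large differences at low level. Of the 51 calls with a clone at 0 reads, 49 lay in the lowest bin. That bin is thus not compared with the others on equal terms, and the fall with level was not tested. In the highest bin 36 were higher and 58 lower in GB, the reverse of the order in bin 2 (189 and 133). Together, the 470 gene models higher in GB took 3.75, 3.38 and 4.11% of the scaled counts in the 3 GB females and 1.67, 1.64 and 1.68% in the 3 IL females. The 421 lower in GB took 2.55, 2.92 and 2.86% in GB and 5.24, 4.58 and 6.07% in IL. These sets were chosen on the same libraries, so the shares describe their size and test nothing.

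None of the 10 most abundant gene models of the BHB libraries passed the test (edgeR adjusted p from 0.116 to 0.963). The most abundant of all measured 94500.8, 55418.4 and 90124.3 CPM in GB replicates 1 to 3 and 67386.9, 39871.6 and 38896.2 in IL. The clones overlapped, and the log2 difference was 0.72 ± 0.308 (SE, edgeR adjusted p = 0.158). The gene model of rank 4 was lower in every GB female, at 9763, 12376 and 12914 CPM against 15280, 15705 and 16895 in IL, and did not pass either (log2 difference -0.45 ± 0.173 SE, edgeR adjusted p = 0.116; 0.0384 in DESeq2). Together the 10 held 21.4, 18.5 and 23.1% of counts in the GB females and 19.5, 17.5 and 15.6% in the IL females. The clone means of 21.02 ± 2.30% and 17.5 ± 1.95% (SD, n = 3) differed by 3.48 percentage points (two-sided exact permutation p = 0.2, where the smallest possible is 0.1).

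Among the gene models past the threshold, the 5 most abundant in each direction ranked from 22 to 234 of all 4261. They were picked by level after the test. Of these 10, 7 lost their call without at least 1 library, and all 7 lost it both without GB BHB replicate 1 and without IL BHB replicate 1. The other 3 kept it without any single library. The first, of rank 154, measured 1430, 1505 and 1337 CPM in GB and 925, 813 and 858 CPM in IL (log2 difference 0.72 ± 0.13 SE, edgeR adjusted p = 0.00643). The second, of rank 215, measured 1067, 1093 and 1164 CPM in GB and 391, 532 and 411 in IL (1.32 ± 0.157 SE, edgeR adjusted p = 0.000964; 0.0674 in a fit of all 22 libraries). In both, every GB female on BHB lay above every IL female. Their clone differences were smaller or opposite elsewhere: -0.11 and 0.76 in control and -0.13 and -0.13 in NMN, none past the threshold (adjusted p of 0.585 or more), and 0.49 (adjusted p = 0.0432) and 0.65 (0.193) in CR. The last, of rank 141, was lower in GB, at 676, 839 and 772 CPM against 1879, 1299 and 2148 in IL (log2 difference -1.22 ± 0.21 SE, edgeR adjusted p = 0.00516). Its difference was 0.20 in control (adjusted p = 0.865), -0.81 in CR (0.207) and 0.77 in NMN, where GB was higher (0.0364). No difference of clone differences between treatments passed for these 3 in edgeR. They were picked for calls that held within BHB, a choice that favours smaller differences elsewhere. Of the 7 others, ranks 35 and 67 passed in control with the same sign (0.98 and 2.27, edgeR adjusted p = 0.0102 and 0.00356). In CR both had the opposite sign without passing (-0.51 and -0.83). In NMN rank 67 passed again (2.04, edgeR adjusted p = 0.0254). Rank 61, lower in GB on BHB, passed there with GB higher (0.93, 0.0283).

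Gene models whose ID stands on more than 1 row were counted apart. Of 774 such gene models tested, 293 passed (37.9%), against 598 of 3487 with an ID of their own (17.1%). They were also less abundant, with a median level of 6.29 CPM against 47.9. Within the lowest level bin the shares were 48.2% and 21.4%, and in the highest 12.3% and 8.54%. In the lowest bin the repeated IDs were again less abundant, with a median of 1.53 CPM against 1.90. More of them may have met the count filter through 1 clone alone, so this bin does not compare the 2 kinds at equal level. Of 191 IDs with more than 1 tested row, 11 had rows called in both directions, 28 had more than 1 row called in a single direction and 55 had 1 row called. When the rows of an ID were summed, 784 of 4034 IDs differed (19.4%), 203 of 547 among the repeated ones (37.1%), and 7 of the 11 with opposed rows were no longer called. Prediction IDs without a protein accession passed in 90 of 321 cases (28%) and accessions in 801 of 3940 (20.3%), with median levels of 3.11 and 40.5 CPM.

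The clone differences found under BHB were next looked up in separate fits of the control, NMN and CR females, none of which had a part in choosing the 891. Most recurred with the same sign. In control 846 of the 891 were measured, of which 811 (95.9%) had the same sign and 565 (66.8%) passed with it. All gene models tested in both groups had the same sign in 70.5%, and 17.8% of those tested in control were called. In NMN 800 of 863 had the same sign (92.7%; 69.5% of all) and 543 passed with it (62.9%, where 19.8% of all tested in NMN were called). In CR 814 of 838 had the same sign (97.1%; 76.1% of all) and 583 passed (69.6%, where 19.2% were called). The signed median of the log2 differences was 1.52 in control, 1.62 in NMN and 1.59 in CR, against 1.80, 1.85 and 1.78 for the same gene models in BHB, where they were chosen. By direction, 324 of those higher in GB and 241 of those lower passed again in control, where 10.2% and 7.64% of all were called higher and lower. In NMN 295 and 248 did (11.1% and 8.64% of all), and in CR 332 and 251 did (11.1% and 8.08% of all). Of the 891, 416 (46.7%) passed with the same sign in all 3 other groups and 180 (20.2%) in none of them. In the 16 libraries outside BHB alone, 586 of the 891 (65.8%; 339 higher and 247 lower in GB) had all 8 GB libraries beyond all 8 IL libraries in the direction seen in BHB. Over all 4261 tested in BHB the share was 16.6%. Females of different treatments can descend from the same stock females of their clone, per the submitters' design text, so these groups are different animals but may not be unrelated ones.

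**Figure D3:**
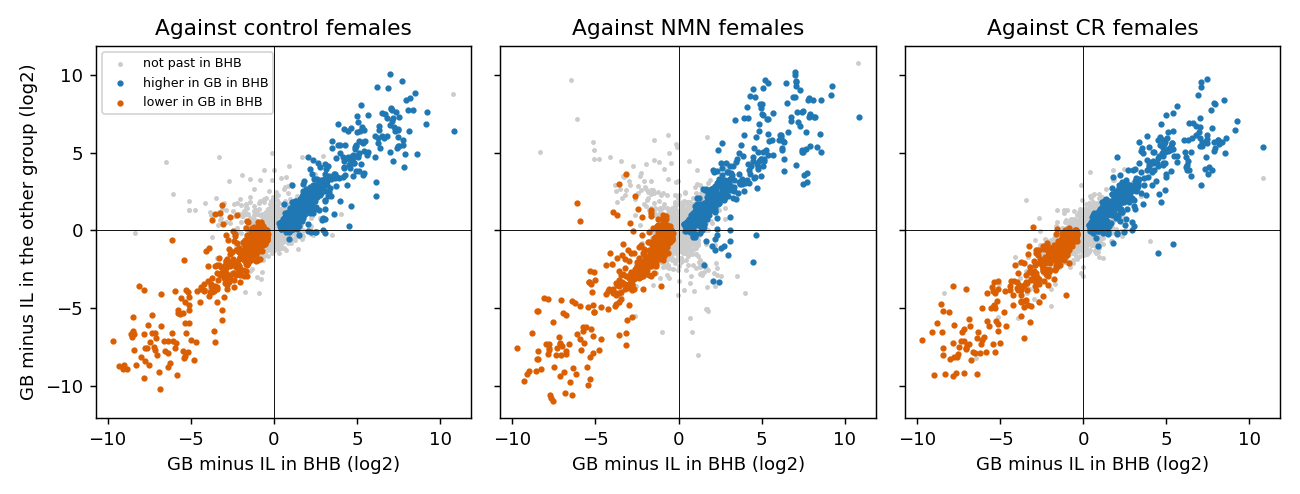
Log2 difference between clones (GB minus IL) in BHB (horizontal axis) against that in control, NMN and CR females (vertical axis), 1 point per gene model tested in both groups. Coloured points passed in BHB; 811, 800 and 814 of them had the same sign in control, NMN and CR.

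The calls were also followed by level. Of the 94 called in the highest level bin, 82 had the same sign in control (87.2%), 79 in NMN (84%) and 86 in CR (91.5%), and 48.9%, 50% and 44.7% passed with it. In the lowest bin 97.8%, 96.9% and 98.5% had the same sign and 73.4%, 68% and 79.4% passed. The shares of all gene models called in the same bin were also lower at high level, 8.54%, 12.6% and 7.04% in the highest bin against 24.3%, 23.9% and 28.9% in the lowest. The highest bin held smaller differences, with a median of 0.78 on the log2 scale in BHB among its calls, and 0.53 in control, 0.54 in NMN and 0.59 in CR. Of its 94 calls 31 (33%) passed in none of the other groups, against 53 of 319 (16.6%) in the lowest bin. These shares are descriptions, and the difference between bins was not tested. The limit that the count filter sets on the lowest bin holds here too.

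**Figure D4:**
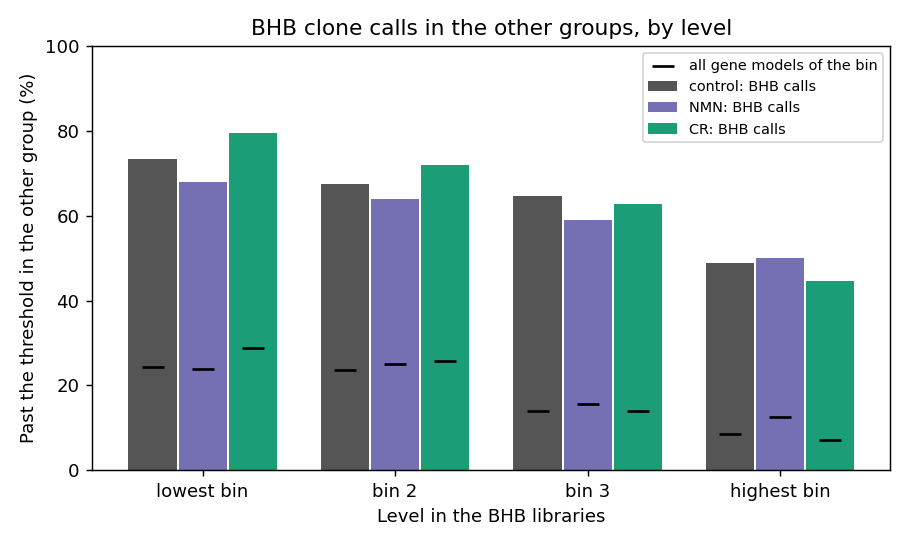
Share of the BHB calls that passed with the same sign in control, NMN and CR (bars, in % of those measured there), by bin of level in BHB, with the share of all gene models of the bin called in that group as a black mark. Bars fall from 68 to 79.4% in the lowest bin to 44.7 to 50% in the highest, and stand above the marks throughout.

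Of the 891, 13 passed with the opposite sign in another group, 12 of the 863 measured in NMN (1.39%), 1 of 838 in CR and 0 of 846 in control. Of all gene models tested in both groups, 97 of 4171 (2.33%) passed in NMN with a sign opposite to that in BHB, 18 of 4118 in CR and 7 of 4165 in control. In NMN, 10 of the 12 were lower in GB under BHB. Whether a clone difference under BHB differed from that in another group was tested as a difference of differences in a fit of all 22 libraries. It passed in 0 of 4965 gene models against control (0% called; 377 at an unadjusted p under 0.05; 1 called by DESeq2), in 0 against CR (230; 4 by DESeq2), in 0 against NMN (443; 0 by DESeq2) and in 0 against the mean of the 3 other groups (369; 1 by DESeq2), all in edgeR's quasi-likelihood test. The median standard error of these differences was 0.42, 0.42, 0.47 and 0.35 on the log2 scale, so that small differences between treatments were not detectable at this sample size. No clone difference is therefore called particular to BHB from the edgeR test. Of the 180 gene models called in BHB alone, 40 reached an unadjusted p under 0.05 in edgeR against the other groups, where 7.43% of all 4965 did. The 180 were chosen for passing in BHB and in no other group, on libraries that this test also uses. An excess of small p-values among them is thus built in, and nothing is read from it.

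In each of these tests the gene model with the smallest p in each direction is given, although none passed. KZS21309 measured 22.2, 17.4 and 17.2 CPM in the GB females on BHB and 8.36, 11.6 and 10.7 in the IL females, so that GB lay above IL. In CR it measured 4.81, 5.55 and 4.91 in GB and 8.36, 10.6 and 11.8 in IL, and GB lay below. In control the GB females measured 8.08, 5.92 and 11.996 CPM and the IL females 14.7, 14.2 and 9.57, and in NMN the GB females measured 9.02 and 6.00 and the IL females 10.6 and 9.91. The clone difference in BHB exceeded that in CR by 1.90 ± 0.359 and that in the mean of the other groups by 1.57 ± 0.298 on the log2 scale (SE, edgeR adjusted p = 0.27 and 0.286). DESeq2 called both (adjusted p = 0.00142 and 0.00133), and over all alternatives the adjusted p ranged up to 0.879 and 0.854.

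Against control, KZS12501 had the smallest p among shifts toward GB. On BHB it measured 24.6, 14.8 and 37.8 CPM in GB and 4.26, 2.18 and 3.20 in IL. In control it measured 10.3, 6.73 and 9.07 CPM in GB and 3.70, 6.66 and 4.74 in IL. GB was higher in every female in both treatments. The difference of 2.20 ± 0.533 did not pass (SE, edgeR adjusted p = 0.613; lowest of all alternatives 0.112). KZR99871_1 had the smallest p the other way, with 574, 551 and 721 CPM in GB and 254, 324 and 270 in IL on BHB, and 713, 1607 and 1238 in GB and 132, 140 and 206 in IL in control. GB was above IL in both treatments, and the gap was narrower in BHB (-1.77 ± 0.377 SE, edgeR adjusted p = 0.613; 0.0359 in DESeq2). Its ID is on 2 rows, of which the other had no read in BHB.

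Against NMN, KZS20635 differed by 0.68 ± 0.159 (SE, edgeR adjusted p = 0.551), from 126, 105.2 and 138 CPM in GB and 102, 98.5 and 103 in IL on BHB to 124 and 129 in GB and 157 and 173 in IL on NMN. KZS06954 rested on single females: 1 IL female measured 193.9 CPM on BHB, where the others of that clone measured 4.04 and 5.33, and 1 GB female measured 172.2 on NMN, where the other measured 0.463 (edgeR adjusted p = 0.551). Against CR, KZS02366_1 shifted toward IL (-3.01 ± 0.741 SE on the log2 scale, edgeR adjusted p = 0.642), from a level of 2.64 to 3.38 CPM in all 6 females on BHB to 0.0866 to 0.527 CPM in the IL females and 2.46 to 3.69 CPM in the GB females on CR. Its other row was tested and held more reads, 2467 in GB and 2159 in IL on BHB, with no call (edgeR adjusted p = 0.422). Against the mean of the other groups, KZS10027 shifted toward IL (-4.33 ± 1.16 SE, edgeR adjusted p = 0.649) through 1 IL female on BHB at 15.1 CPM. Every other library of the series had 2.5 CPM or less of it.

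The females of a clone were not alike. Pearson's r of log2 CPM across gene models was 0.976 to 0.983 between GB females and 0.967 to 0.985 between IL females, against 0.88 to 0.908 over the 9 pairs of a GB and an IL female. Genes are not independent replicates, and these values are descriptions. Within a clone 6.1 to 10.9% of gene models lay over 2-fold apart in a pair of females, and between clones 23.2 to 28%. The first principal component held 75.5% of the variance and separated the clones, from -44.4 to -43.2 in GB and from 39.1 to 52.5 in IL. On the second (9.6%), IL replicate 3 stood apart at 28.7, with the other IL females at -10 and -23.2 and the GB females between -0.558 and 5. The median SD among the 3 females was 0.26 in GB and 0.19 in IL on the log2 scale.

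Of the 6 females, 2 held most of the gene models that lay over 8-fold from both clone mates. GB replicate 2 lay over 8-fold below both other GB females in 17 gene models and over 8-fold above both in 0. The most abundant of these, of rank 12, measured 287 CPM there and 12665 and 8228 in GB replicates 1 and 3, with 5850 to 10712 in IL. In all, the 17 summed to 1254 CPM in GB replicate 2, where the other 21 libraries of the series lay between 14925 and 62325. They were picked for this female, and such a spread within a clone hinders a call between clones: 0 of the 17 were called, against 20.9% of all tested, from which nothing is read.

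IL replicate 3 lay over 8-fold above both other IL females in 16 gene models and over 8-fold below both in 16 others. The most abundant of the first, of rank 212, measured 3998 CPM in it, 493 and 79.5 in IL replicates 1 and 2 and 24.1 to 66 in GB. The first 16 summed to 11972 CPM in IL replicate 3, to 706 and 157 in the other IL females and to 94.0, 151 and 131 in GB. Similar sums were found outside BHB in GB control replicate 2 (24609), GB NMN replicate 1 (18695) and IL CR replicate 1 (26191), and the same 3 libraries were low in the other 16, at 22.0, 12.03 and 41.5 CPM beside 22.5 in IL replicate 3. Intermediate sums of the first set were found in IL control replicate 3 (4924), GB NMN replicate 3 (3387) and GB control replicate 1 (1528). High libraries thus came from both clones, and the 3 GB females on BHB were low in the first set and high in the second (1028 to 1806). Of the 32 gene models, likewise picked for their spread within a clone, 1 was called between clones, against 20.9% of all tested, and nothing is read from that count either. Without IL replicate 3 the clone comparison called 821 gene models, 717 of them among the 891, and without all 58 gene models that were over 8-fold apart in any BHB female it called 914. The part of this difference between females in the other calls was not tested.

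**Figure D5:**
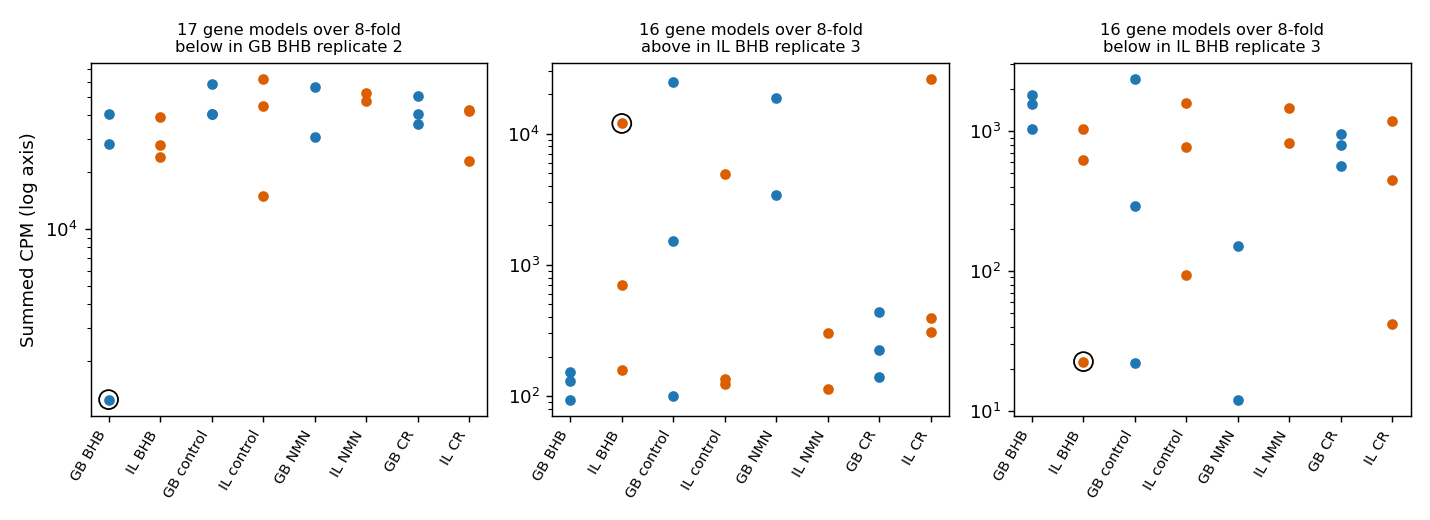
Summed level (CPM, log axis) of the 17 gene models low in GB BHB replicate 2 and of the 16 high and 16 low in IL BHB replicate 3, in every library by group, with GB in blue, IL in orange and the female that chose the set circled. The high set is also high, and the low set low, in 1 female each of GB control, GB NMN and IL CR.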

How the data were processed

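Per the labels' protocols, total RNA (Qiagen RNeasy) entered a strand-specific NEBNext Ultra II preparation. The authors deposited raw counts of sense-strand reads, per the labels. FastQC, Trim Galore 0.4.5, STAR and DESeq2 are named in the submitters' processing notes; for the counting tool, genome build and gene models, a name is not given in the sources used here. The table had 14657 rows, 5500 of them without a read. Rows were tested one by one, with a running number added to the 1546 IDs on more than 1 row.

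Gene models were kept with filterByExpr (minimum count 10, minimum total 15), scaled by TMM and tested with edgeR 4.0.16 (quasi-likelihood, robust) in R 4.3.3 over the 6 BHB libraries. Differences of clone differences came from 8 group means over 22 libraries, 4965 gene models. Standard errors come from the log2 difference and F. A prior count of 2 entered log2 CPM. Named gene models were the 2 with the largest difference in each direction among calls without overlap whose mean log2 CPM reached 1, and for each difference of differences the smallest p in each direction. The group of restricted diet (title letter L) was read by elimination. Each female is 1 replicate by the labels. A check for libraries deposited more than once, by chi-square of counts, found none within counting noise (lowest chi-square over its degrees of freedom 84.8). Title numbers did not pair the clones. The comparison and the rules were chosen with earlier results of these data known. Alternatives were DESeq2 1.42.0, other scalings and filters, a stricter threshold, the replicate number, summed rows, all libraries and each library left out. Females given BHB and NMN together were not analysed here.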

Additional observations from a re-analysis of the deposited data

Results flagged for a closer look

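Clone differences that pointed in opposite directions in BHB and in another group, with all GB females on one side of all IL females in both, were found for 2 of the named gene models. For KZS21309, the GB minus IL difference of mean log2(CPM + 1) was 0.834 in BHB, against -0.427 in NMN and -0.873 in CR. The test of the difference gave an edgeR adjusted p of 0.551 against NMN and 0.27 against CR. For KZS20635 it was 0.277 in BHB, against -0.385 in NMN and -0.22 in CR, with edgeR adjusted p-values of 0.551 and 1.00 (0.9999). Neither passed in edgeR. The separation of KZS20635 was narrow: on CR its highest GB female measured 120.6 CPM and its lowest IL female 120.8. On BHB its lowest GB female measured 105.2 CPM and its highest IL female 102.8. In NMN each clone had only 2 females. Both gene models were named for the smallest p of a difference of differences, a choice that favours opposite directions. How many of all gene models tested show the same pattern was not counted. Complete separation of the clones in BHB alone was seen in 38.6% of those tested.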

How the results depend on the processing

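Direction and call of the 4 named gene models, which were chosen for their call on the same BHB libraries, held under all 16 alternatives. The counts of gene models over 4-fold stayed within 1.5 times of 441 (360 to 607). The count of 891 became 538 at an adjusted p of 0.01 and was 1097 in DESeq2, which called 885 of the 891, and 1201 in a fit of all 22 libraries, which called 818 of them. DESeq2 called 1, 1 and 4 gene models in the differences of differences against the other groups, control and CR. The replicate block gave 2 against CR; same-numbered females of the clones correlated by 0.0158 to 0.0548, and the paired fit of the clones called 779. Within a clone, same-numbered females of BHB and control or CR correlated by -0.485 to 0.537 (5 of 12 over 0.1, among them all 3 of IL BHB with IL control, at 0.147, 0.378 and 0.537), so the numbers did not pair the females throughout. Among the most abundant gene models, signs turned without 1 library in 3 that were not called: the log2 difference of rank 10 ranged from -0.09 (-0.0875) to 0.04 (0.0387; 0.0145 without GB BHB replicate 2), that of rank 2 from -0.07 (-0.0664) to 0.43 (0.426) and that of rank 5 from -0.07 (-0.0653) to 0.46 (0.464), the negative ends of ranks 2 and 5 without GB BHB replicate 3. The same-sign shares were 91.3% in control and 86.5% in NMN with DESeq2 calls, and ranged from 90.1 to 98.6% in control, 86.2 to 96.5% in NMN and 95.6 to 98.5% in CR without 1 library. Gene models with reads in GB or IL only numbered 49 and 45 with at least 5 reads, 11 and 12 with at least 20, and 41 and 56 with up to 1 read allowed in the other clone. The spread in IL was 0.168 with a prior count of 10 and 0.111 over the 1000 most abundant gene models. The causes were not tested. Alternatives of single gene models changed the call or sign in 56 of 474 cases. Low-count gene models have the least precision, and with 3 females a side small differences go undetected.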

Other observations

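Prediction IDs carry the name of an assembly contig, which allowed their clone differences under BHB to be sorted by contig. The 321 tested prediction IDs lay on 67 contigs, of which 12 held at least 10. Of the 321, 90 were called (28%), against 20.9% of all gene models tested. Among the 12 contigs with at least 10, the share called ranged from 0% (0 of 11, falcon_000009) to 56.2% (9 of 16, falcon_000028, 4 higher and 5 lower in GB). On falcon_000004, 6 of 11 passed (54.5%), and on falcon_000005 1 of 12 (8.33%). The contigs were compared after their values were seen, with no test.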
